A study of Mus musculus with 8 samples.

Results

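Collagen chain genes were taken as every row of the expression table whose gene ID reads Col, a type number, the letter a and a chain number. This gave 43 of the 17631 genes measured. They were sorted by the family's usual classes into 11 fibrillar chains, 9 FACIT chains (fibril-associated collagens with interrupted triple helices), 5 type IV chains of basement membranes, 6 beaded-filament chains of type VI, 3 short-chain collagens and 4 transmembrane collagens. A further 2 multiplexins, the anchoring fibril chain Col7a1, and Col26a1 and Col28a1, which fall in none of these classes, complete the 43. The mutant mice carried Gli1-CreERT2, a tamoxifen-inducible Cre recombinase driven from the Gli1 locus, together with 2 floxed copies of Runx2, and the control mice carried the Runx2fl/fl alleles alone. All animals were C57BL/6, received tamoxifen in corn oil by intraperitoneal injection, at 1.5 mg per 10 g of body weight, at postnatal day 3.5 and were examined at postnatal day 7.5. Each group had 4 libraries, made from total RNA of the apical portions of lower first molars, where the root forms. Cre acts in Gli1-expressing cells and their progeny, so the tissue also held cells that kept Runx2. Because controls carried no Cre, what the driver does by itself and what losing Runx2 does cannot be told apart.

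Collagens are secreted or membrane proteins in which chains wind into a triple helix, and glycine opens each short repeat of the helical part. Fibrillar collagens build the load-bearing fibrils of dentin, bone, periodontal ligament and pulp. FACIT chains sit on the surface of those fibrils. Type IV collagen forms the network of basement membranes, type VI forms beaded filaments around cells, type VII anchors epithelia, and short-chain collagens form lattices. In the tooth, odontoblasts lay down a matrix made mostly of type I collagen, and follicle cells form the ligament and its fibres.

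The repeat is visible in the coding sequences. The first 54 bases of the longest unbroken glycine repeat are shown for Col1a1, the main dentin and bone collagen, and for the 3 chains that passed the test described below, with the glycine codon that opens each repeat in capitals. They run 5′ to 3′ on the coding strand and come from GENCODE M21 on GRCm38.
Col1a1: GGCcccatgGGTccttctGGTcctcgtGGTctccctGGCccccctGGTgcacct
Col14a1: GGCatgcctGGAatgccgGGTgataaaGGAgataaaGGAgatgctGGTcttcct
Col6a3: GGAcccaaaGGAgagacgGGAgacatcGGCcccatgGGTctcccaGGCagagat
Col8a1: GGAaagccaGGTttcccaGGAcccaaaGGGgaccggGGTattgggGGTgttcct
Every one of these 54-base stretches holds 18 codons, and a glycine codon stands first in each repeat. The unbroken run went on for 338 repeats in Col1a1, 32 in Col14a1, 45 in Col6a3 and 61 in Col8a1.

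Length of the run and exon structure differed between the classes. Fibrillar genes had runs of 216 to 344 repeats and between 21 and 33 coding exons of exactly 54 bases, the unit from which their helix is built, which made up 47.0% of their coding exons. The share was 25.2% in FACIT genes, 7.80% in beaded genes, 8.86% in transmembrane genes and 4.10% in type IV genes. In other protein-coding genes it was 0.430%. The short-chain genes Col8a1, Col8a2 and Col10a1 had only 2 coding exons each and none of 54 bases, although their runs of 60 to 61 repeats exceeded those of all type IV genes except Col4a2, with 66. The shortest run among the 43 members was 23 repeats. Of the 14722 other protein-coding genes measured, 16 had a run at least that long.

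**Figure D1:**
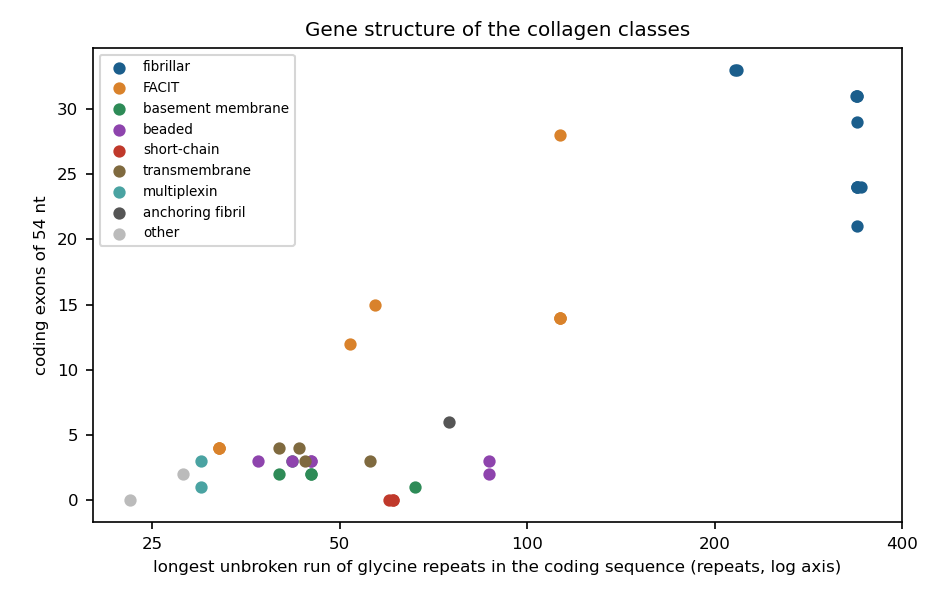
Longest unbroken run of glycine repeats (x axis, repeats, log scale) against the number of coding exons of 54 nt (y axis) for the 43 collagen chain genes, coloured by class. Fibrillar genes stand at the upper right with 216 to 344 repeats, and the 3 short-chain genes lie at 0 exons of 54 nt.

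Each value is a group mean of normalised signal as the authors deposited it, with no value for single libraries, so neither the spread between libraries nor the overlap of the groups can be given, and sequencing depth is unknown. Unless stated otherwise, group means, folds and adjusted p-values below are from the authors' deposited table, and log2 ratios, medians and sums were computed from it. A gene is said to have risen or fallen where its adjusted p was under 0.05. Over all genes 139 passed, which is 0.788%, and 0.471% rose and 0.318% fell. Runx2 itself had a mean of 65.1 in mutants and 105.5 in controls (adjusted p = 0.0646 from the authors' deposited table), outside the threshold, and Gli1, the locus of the driver, had 19.9 and 38.8 (adjusted p = 0.0228). Tooth tissue was evident from the dentin gene Dspp, at 7360 in mutants and 7714 in controls, and the enamel gene Amelx, at 112174 and 174946.

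Of the 43 collagen genes, 3 rose in mutant molars and none fell. They were Col8a1, Col14a1 and Col6a3, each from a different class, and together they make 6.98% of the members. All 3 calls were lost when a trend with GC content and length was subtracted from signed scores made from the p-values. At an unadjusted p under 0.05 there were 10 higher members, where 9.89% of all genes passed as higher, and 2 lower members, where 9.4% did. The 12 make 27.9% of the members, against 19.3% of all genes. At an adjusted p under 0.10 there were 5 higher members, and 2.01% of all genes. Means were higher in mutants for 28 members and lower for 15, so 65.1% were higher, where 50.6% of all genes were. The median log2 ratio was 0.092 over the members and 0.0033 over all genes. Rescaling both groups to the same summed signal adds 0.14 to every log2 ratio, that of all genes included.

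**Figure D2:**
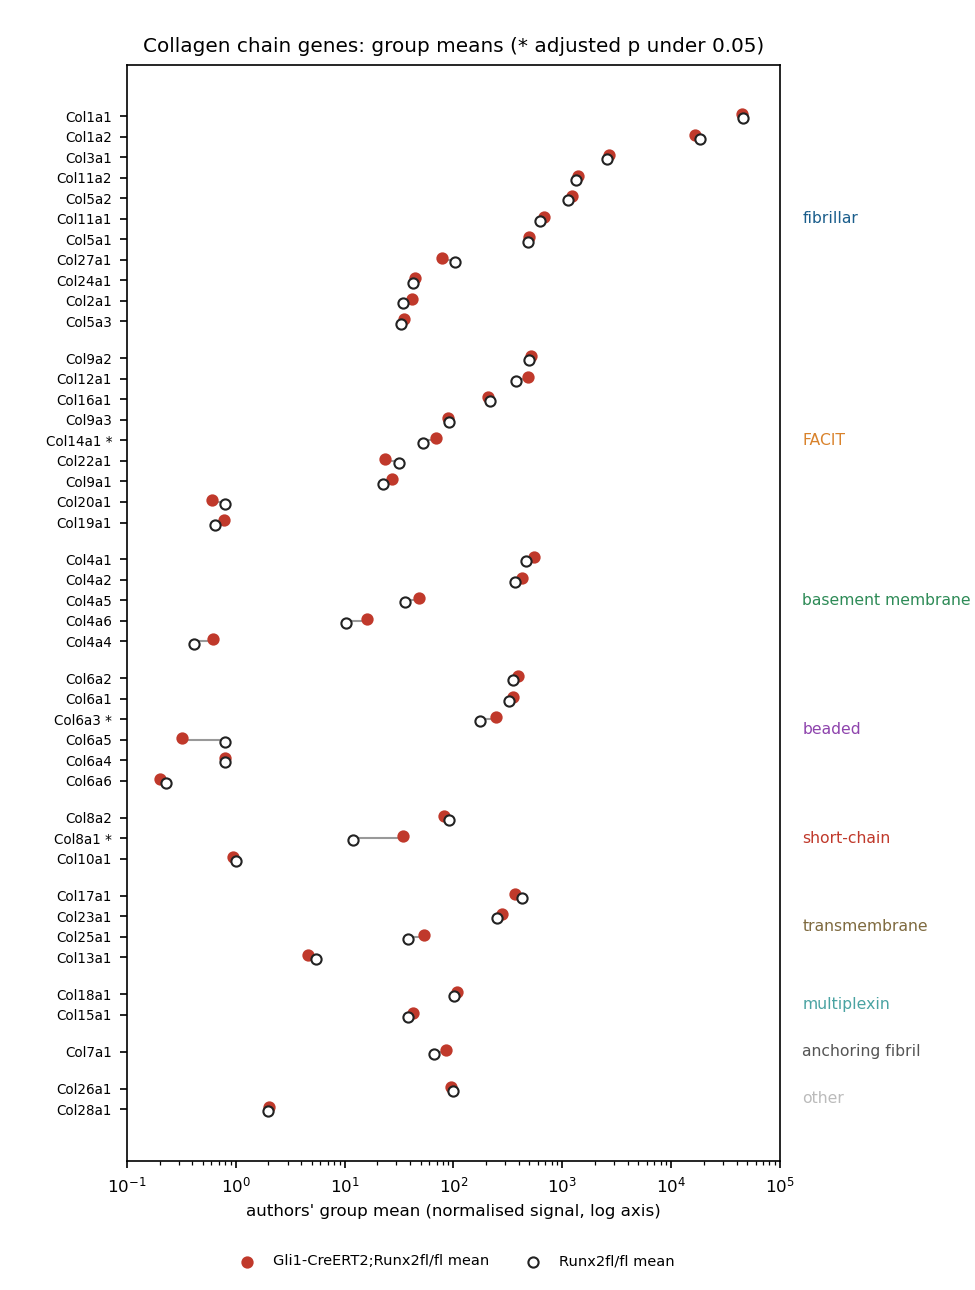
Authors' group means (x axis, normalised signal, log scale) of the 43 collagen chain genes, in mutants (filled) and controls (open), by class; the means carry no error bars because values per library were not used here. The members span from 0.201 to 45713, and the widest gaps belong to Col8a1, higher in mutants, and the scarce Col6a5, lower in mutants.

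**Figure D3:**
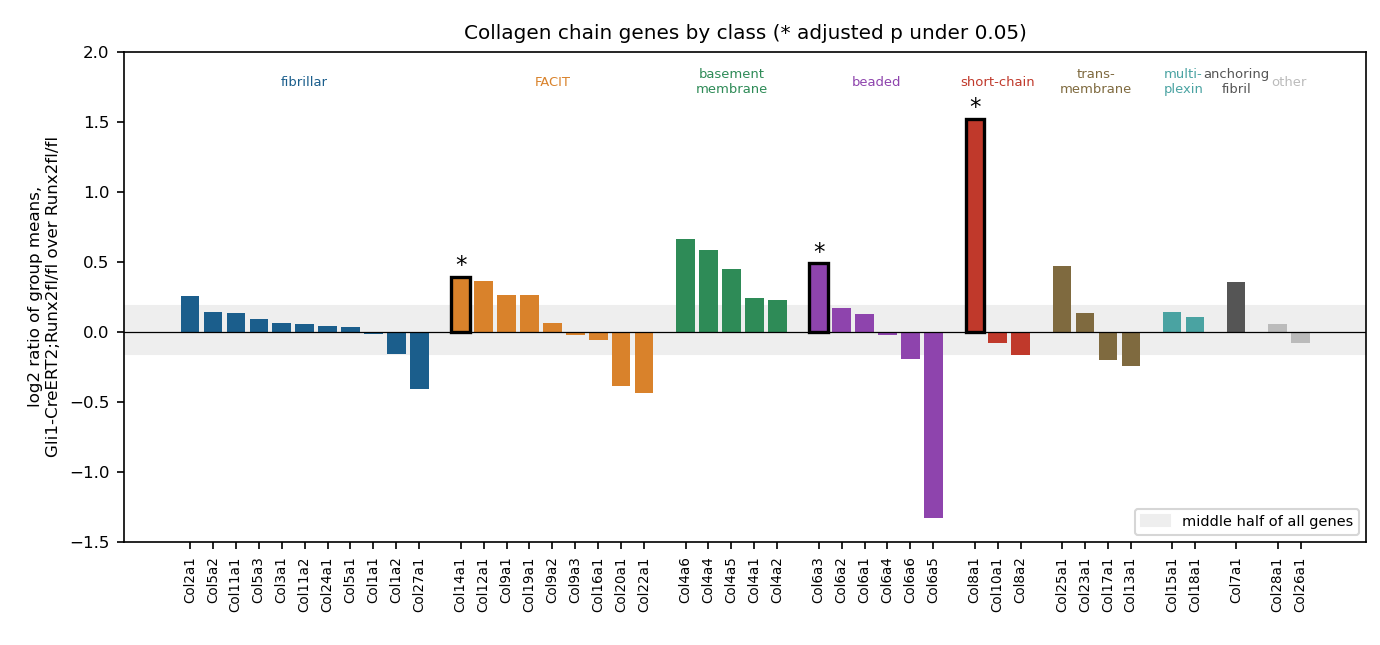
Log2 ratio of group means, mutants over controls (y axis), for each collagen chain gene, ordered within its class; the grey band is the interquartile range of all genes, from -0.16 to 0.18, and asterisks mark an adjusted p under 0.05. Col8a1 stands highest at 1.52 and Col6a5 lowest at -1.33, and all 5 type IV genes lie above the band.

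The short-chain class held the greatest rise of the family. Col8a1 (chromosome 16, 57624258 to 57754737, minus strand, GRCm38), a chain of the hexagonal lattices found in the matrix of vessel walls and of the cornea, had a mean of 34.5 in mutants and 12.0 in controls. This was a 2.87-fold rise with an adjusted p of 0.0330 from the authors' deposited table. By mean, Col8a1 ranked 4589th among all genes in mutants and 8476th in controls. Its partner chain Col8a2 did not pass, with 81.3 in mutants and 91.4 in controls (log2 ratio -0.17, adjusted p = 0.657 from the authors' deposited table). Per kilobase of transcript, Col8a1 stood at 0.360 of Col8a2 in mutants and 0.111 in controls. Col10a1, the collagen of hypertrophic cartilage, had low means of 0.948 in mutants and 1.00 in controls (adjusted p = 0.996 from the authors' deposited table).

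Among FACIT chains, Col14a1 rose and the large chain most like it in domain make-up, Col12a1, did not pass. Col14a1 (chromosome 15, 55307750 to 55520803, plus strand), a fibril-surface collagen of tendon, skin and ligament, had 68.6 in mutants and 52.2 in controls (1.31-fold, adjusted p = 0.0417 from the authors' deposited table). Col12a1, which is abundant in tendon and periodontal ligament, had 485.1 in mutants and 377.4 in controls (1.29-fold, adjusted p = 0.155 from the authors' deposited table). The log2 ratios were close, at 0.39 for Col14a1 and 0.36 for Col12a1. Both chains had short helical runs of 32 repeats, as did the scarce Col20a1, at 0.606 in mutants and 0.791 in controls (log2 ratio -0.39, adjusted p = 0.619 from the authors' deposited table).

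Of the type IX chains, which decorate cartilage fibrils, Col9a2 and Col9a3 had log2 ratios near 0 and Col9a1 had a higher one. Col9a2 stood at 519.0 in mutants and 498.2 in controls, Col9a3 at 89.8 and 91.5, and Col9a1 at 27.1 and 22.6, with log2 ratios of 0.059, -0.027 and 0.26. Per kilobase, Col9a1 reached 0.0398 of Col9a2 in mutants and 0.0346 in controls, although both chains belong to the same trimer. None of the 3 passed (lowest adjusted p = 0.216, for Col9a1, from the authors' deposited table). Of the other FACIT genes, Col22a1, a collagen of tissue junctions, had 23.4 in mutants and 31.7 in controls (log2 ratio -0.44, adjusted p = 0.263 from the authors' deposited table), Col16a1 had 207.0 and 216.0, and Col19a1 0.779 and 0.651.

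In the beaded class, Col6a3 rose while the other chains of the common type VI trimer did not pass. Col6a3 (chromosome 1, 90765923 to 90843971, minus strand), the longest chain of the pericellular filament, had 246.1 in mutants and 175.1 in controls. It rose 1.41-fold (adjusted p = 0.0438 from the authors' deposited table). Col6a1 had 356.0 in mutants and 326.8 in controls (log2 ratio 0.12, adjusted p = 0.616 from the authors' deposited table), and Col6a2 had 394.8 and 350.3 (log2 ratio 0.17, adjusted p = 0.406). Per kilobase, Col6a3 was 0.280 of Col6a1 in mutants and 0.217 in controls, whereas Col6a1 was 0.869 and 0.898 of Col6a2. Per kilobase of all annotated exons, Col6a1 was instead 1.71 of Col6a2 in mutants and 1.77 in controls, so their order depends on the length used. The chains that can take the place of Col6a3 were scarce. Col6a5 had 0.321 in mutants and 0.807 in controls, the lowest log2 ratio of the family at -1.33, and did not pass (adjusted p = 0.128 from the authors' deposited table). Col6a4 had 0.794 and 0.805 and Col6a6 had 0.201 and 0.230. Col6a4, Col6a5 and Col6a6 lie side by side on chromosome 9, and whether these related genes share reads was not tested.

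All 5 type IV genes measured had higher means in mutants, and none passed. Their median log2 ratio was 0.45, with a range from 0.23 to 0.66, and the median was 0.24 with a pseudocount of 1 added to both means. Col4a6 (chromosome X, 141165403 to 141474076, minus strand) came nearest, with 16.2 in mutants and 10.2 in controls, 1.58-fold higher (adjusted p = 0.0548 from the authors' deposited table, the first member outside the threshold). Its trimer partner Col4a5 had 48.8 in mutants and 35.8 in controls (log2 ratio 0.45, adjusted p = 0.120 from the authors' deposited table). The ubiquitous chains were more abundant: per kilobase of transcript, Col4a5 stood at 0.0907 of Col4a1 in mutants and 0.0786 in controls. Col4a1 had 545.2 in mutants and 460.9 in controls (log2 ratio 0.24, adjusted p = 0.256 from the authors' deposited table), and Col4a2 had 429.8 and 366.6 (log2 ratio 0.23, adjusted p = 0.310). Per kilobase, Col4a1 was 1.24 of Col4a2 in mutants and 1.23 in controls. Col4a4 was scarce, at 0.624 in mutants and 0.417 in controls, and Col4a3 was not analysed here. When only the 14168 genes whose higher group mean reached 1 entered the adjustment, Col4a6 passed (adjusted p = 0.0449, recomputed here from the p-values the authors deposited).

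Endothelial markers, whose cells make type IV collagen, gave the following values in the same comparison. Of 5 markers, 4 had higher means in mutants and none passed, and their means summed to 224.5 in mutants and 202.0 in controls. Of 5 dental epithelium markers, 3 had higher means and none passed, with sums of 2480 and 2466. No marker of either list was at 0. The part of cell number in the type IV values was not tested. In bulk tissue, a change in the number of cells of a type and a change in RNA per cell cannot be told apart.

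Of the other collagens of basement membrane zones, Col7a1, Col15a1 and Col18a1 also had higher means, while Col17a1, given below, had a lower one. Col7a1, the anchoring fibril chain under epithelia, had 84.8 in mutants and 66.5 in controls (log2 ratio 0.35, adjusted p = 0.177 from the authors' deposited table). The multiplexins Col15a1 and Col18a1, proteoglycan collagens of vascular and epithelial basement membranes, had 42.2 and 107.7 in mutants and 38.3 and 100.3 in controls, with log2 ratios of 0.14 and 0.10. Neither passed.

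Fibrillar collagen dominated the family's signal and held no gene that rose or fell, where 0.788% of all genes did. Col1a1 had 45190 in mutants and 45713 in controls, and Col1a2 had 16538 and 18476, with log2 ratios of -0.017 and -0.16 (adjusted p = 0.953 and 0.817 from the authors' deposited table). By signal, which is not scaled by length, Col1a1 ranked 3 and Col1a2 ranked 4 among all genes in both groups. Per kilobase of transcript they stood at 7621 and 3092 in mutants and 7709 and 3455 in controls. All 11 fibrillar genes together made 93.7% of the summed collagen signal in mutants and 94.4% in controls. Their median log2 ratio was 0.054, within a range from -0.41 to 0.26. The ligament and pulp collagen Col3a1 had 2690 in mutants and 2571 in controls. Col5a1 had 492.4 and 480.1 and Col5a2 1242 and 1126; type V collagen starts fibril assembly. The type XI chains had 682.5 in mutants and 620.8 in controls for Col11a1, and 1383 and 1332 for Col11a2. Col2a1, the main cartilage collagen, had 41.6 in mutants and 34.8 in controls, or 8.16 and 6.82 per kilobase (log2 ratio 0.26, adjusted p = 0.480 from the authors' deposited table). Col24a1 had 44.0 and 42.8, and Col5a3 35.0 and 32.9.

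Col27a1 was the fibrillar gene with the lowest p. It had 78.4 in mutants and 104.2 in controls, a log2 ratio of -0.41 (unadjusted p = 0.00856, adjusted p = 0.134 from the authors' deposited table). With Col24a1 it forms a branch of fibrillar collagens with a shorter helix, and these genes had runs of 217 and 216 repeats.

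The chondrocyte list, set beside the cartilage collagens of types II, IX, X and XI, held both scarce and more abundant genes. Of its 6 measured markers 1 rose, the link protein gene Hapln1 (70.5 in mutants and 45.8 in controls, adjusted p = 0.0392 from the authors' deposited table), and 4 had higher means. Acan, which encodes the main cartilage proteoglycan, stood at 4.3 in mutants and 4.12 in controls, and Comp at 0.192 and 0.274. Their means summed to 195.2 in mutants and 161.4 in controls, of which Sox9 gave 104.6 and 98.6, and none was at 0. Their part in the values of Col2a1 and Col9a1 was not tested.

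Markers of mineralising and ligament cells were set beside type I collagen and the 3 chains that rose. Of 6 osteoblast markers 2 fell, Sp7 (117.7 in mutants and 154.8 in controls, adjusted p = 0.0447 from the authors' deposited table) and Bglap (1252 and 2234, adjusted p = 0.0484), and all 6 had lower means, with sums of 2987 and 4309. Phex stands in this list and in the odontoblast list. Of 4 odontoblast markers all had lower means and none passed, and their sums were 7966 in mutants and 8342 in controls. The markers of periodontal ligament and follicle, cells that express Col12a1, Col14a1 and Col6a3, had higher means in 3 of 5 cases, and none passed. Postn had 326.7 in mutants and 200.2 in controls (adjusted p = 0.0590 from the authors' deposited table). Mkx had 17.0 and 10.7, and Aspn had 18.9 and 10.9. The other markers of the list had lower means in mutants, Scx with 1.77 and 2.27 and Tnmd with 11.3 and 12.3. The list summed to 375.8 in mutants and 236.3 in controls, mostly from Postn. None of the markers in these lists was at 0. The part of these cells in the rises of Col14a1, Col6a3 and Col8a1 was not tested.

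The remaining marker lists were uneven. Of 6 pericyte and smooth muscle markers 2 fell, Acta2 (23.7 in mutants and 53.0 in controls) and Tagln (15.2 and 30.4), and the other 4 had higher means, none of which passed. Of these, Cspg4 had 43.1 in mutants and 34.6 in controls, Rgs5 had 195.1 and 166.3, and the whole list summed to 423.4 and 420.5. Of 4 erythroid markers 1 fell, Hba-a1 (92.5 in mutants and 223.3 in controls), which has a near-identical copy that may share reads, and the list summed to 288.6 and 658.0. No marker passed among 6 ameloblast, 5 skeletal muscle, 3 Schwann and 3 macrophage genes, whose sums were 177014, 2.41, 12.7 and 188.3 in mutants and 260990, 4.87, 17.2 and 171.5 in controls.

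The transmembrane collagens gave values in both directions, and none passed. Col25a1, a collagen of neurons and of muscle innervation, had 53.3 in mutants and 38.4 in controls (log2 ratio 0.47, adjusted p = 0.0923 from the authors' deposited table). Col17a1, the hemidesmosomal collagen of epithelia including enamel epithelium, had 372.0 in mutants and 427.6 in controls (log2 ratio -0.20, adjusted p = 0.434 from the authors' deposited table). Col23a1 had 277.6 and 253.2, and Col13a1 4.58 and 5.44. In the last group, Col26a1 had 94.8 in mutants and 100.2 in controls, and Col28a1 had 2.04 and 1.97.

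Summed over the 43 genes, collagen signal was 73033 in mutants and 74689 in controls, a ratio of 0.978. This was 7.65% of all signal in mutants and 7.11% in controls. The signal of all genes summed to 955256 in mutants and 1.05068e+06 in controls, a ratio of 0.909. The 6 ameloblast markers, none of which passed, made up 177014 and 260990 of these totals. Shares and rescaling to the same sum depend on the totals, whereas the median log2 ratio of all genes was 0.0033. Without Col1a1 and Col1a2 the collagen sums were 11305 in mutants and 10500 in controls. By class, the sums were 1041 in mutants and 873.9 in controls for type IV, 998.2 and 854.0 for beaded chains, 1421 and 1291 for FACIT chains, and 707.5 and 724.6 for transmembrane chains. These sums, not scaled by length, carry no test. The genes that rose belong to classes that hold under 2% of collagen signal each.

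**Figure D4:**
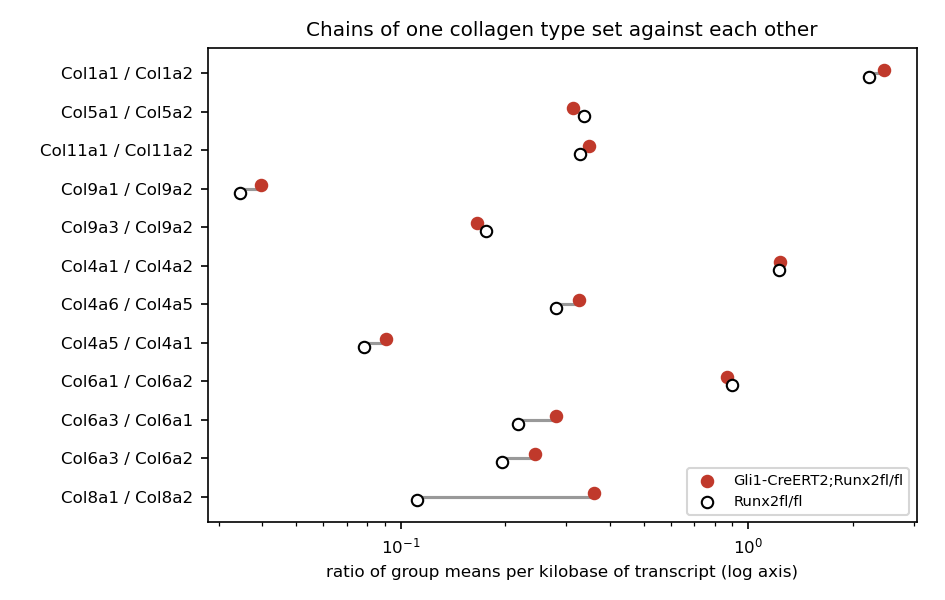
Ratio of group means per kilobase of transcript (x axis, log scale) for 12 pairs of chains of one collagen type, in mutants (filled) and controls (open). Col8a1 over Col8a2 shows the widest gap, 0.360 in mutants and 0.111 in controls, while Col4a1 over Col4a2 is 1.24 and 1.23.

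The ratios of partner chains depend on the length used to scale them. Col1a1 stood at 2.46 of Col1a2 in mutants and 2.23 in controls per kilobase of the transcript with the longest coding sequence, and at 5.17 and 4.68 per kilobase of all annotated exons. The difference between the groups does not depend on that choice. In log2 it was 0.14 for Col1a1 over Col1a2, 0.37 for Col6a3 over Col6a1, -0.048 for Col6a1 over Col6a2, 0.013 for Col4a1 over Col4a2, 0.21 for Col4a6 over Col4a5 and 1.69 for Col8a1 over Col8a2. No test of these differences can be made from group means.

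Several members lie next to each other in the genome. Col4a1 and Col4a2 on chromosome 8 are transcribed away from each other from starts so close that the annotated genes overlap by 22 bases, and Col4a5 and Col4a6 on chromosome X likewise, with 1308 bases between them. The log2 ratios were 0.24 and 0.23 in the first pair and 0.45 and 0.66 in the second. Col3a1 and Col5a2, end to end on chromosome 1 with 24614 bases between them, had 0.066 and 0.14, and Col6a1 and Col6a2 on chromosome 10 had 0.12 and 0.17. Neighbours also differed: Col6a5 had -1.33 beside Col6a4 with -0.021. In all, 12 members have an exon that overlaps an exon of another annotated gene, 9 of them on the opposite strand, and whether counting used strand is not given in the sources used here. Col8a1, Col14a1, Col6a3 and Col4a6 are not among the 12.

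Promoter windows from RefSeq (GRCm38.p6), from 250 bases before to 50 after the start, were matched to 35 members. Col14a1, which rose, and Col1a1 had no window, so neither was searched. The windows are shown for Col8a1 and Col6a3, which rose, and for Col4a1 and Col4a6, 1 gene of each head-to-head type IV pair. Each runs 5′ to 3′ on the strand of its gene, with matches to the letters of 4 motifs in capitals.
Col8a1, chr16:57754688-57754987: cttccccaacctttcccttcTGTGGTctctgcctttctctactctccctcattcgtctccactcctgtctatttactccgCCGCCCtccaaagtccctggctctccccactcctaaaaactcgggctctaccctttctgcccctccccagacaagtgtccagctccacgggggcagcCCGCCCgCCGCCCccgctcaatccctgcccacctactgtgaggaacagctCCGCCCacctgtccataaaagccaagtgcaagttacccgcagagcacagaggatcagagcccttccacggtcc
Col6a3, chr1:90843922-90844221: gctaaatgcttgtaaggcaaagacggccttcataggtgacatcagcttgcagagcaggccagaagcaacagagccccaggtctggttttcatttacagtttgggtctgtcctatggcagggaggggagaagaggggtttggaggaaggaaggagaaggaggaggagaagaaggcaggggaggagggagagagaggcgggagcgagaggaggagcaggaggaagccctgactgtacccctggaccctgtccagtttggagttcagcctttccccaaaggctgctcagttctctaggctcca
Col4a1, chr8:11312777-11313076: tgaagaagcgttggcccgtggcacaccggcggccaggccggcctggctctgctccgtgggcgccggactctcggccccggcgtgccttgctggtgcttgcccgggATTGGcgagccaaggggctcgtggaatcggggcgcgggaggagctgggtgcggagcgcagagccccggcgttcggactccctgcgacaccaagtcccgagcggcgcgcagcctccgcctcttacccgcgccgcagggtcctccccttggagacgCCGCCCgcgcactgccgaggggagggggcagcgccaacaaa
Col4a6, chrX:141474027-141474326: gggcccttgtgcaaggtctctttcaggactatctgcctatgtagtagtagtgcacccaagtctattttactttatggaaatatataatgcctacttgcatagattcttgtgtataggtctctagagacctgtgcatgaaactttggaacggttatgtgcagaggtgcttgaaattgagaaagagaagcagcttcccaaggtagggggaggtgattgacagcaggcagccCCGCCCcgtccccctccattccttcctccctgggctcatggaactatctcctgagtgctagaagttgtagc
The genes lie on the minus strand. The motifs, searched on both strands, were the RUNX core TGTGGT, the GC box GGGCGG, the CCAAT box CCAAT and the TATA box TATAAA. None of these motifs overlaps another within the 4 windows shown. The window of Col4a1 shares 78 bases with that of Col4a2.

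The RUNX core letters were found in 3 of the 35 members (8.57%), Col8a1, Col17a1 and Col18a1, and in 18.9% of all 27025 genes with a window. In Col8a1 they start at position -230 relative to the annotated start. GC box letters were found in 22 members (62.9%) and in 38.2% of all genes. The CCAAT letters were found in 37.1% of members and 41.1% of all genes, and the TATA letters in 14.3% and 15.7%. The window of Col6a3 held none of the 4 motifs.

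Collagen transcripts were rich in GC and long, with a median GC content of 56.4% and a median length of 5595 nt, where other protein-coding genes had 50.7% and 2983 nt. The ratios of protein-coding genes varied with GC content in this comparison, for a cause that was not tested. Among those whose higher group mean reached 1, the median log2 ratio was 0.20 in the GC-poorest eighth and -0.12 in the richest. Of the 43 members, 18 fell in the richest eighth, where their median was 0.045, and none in the 2 poorest. Subtracting the trend on GC content and length from the log2 ratios raised the median of the members to 0.15. All 3 calls were lost when the trend was subtracted from signed scores made from the p-values. The adjusted p, recomputed from the p-values the authors deposited, was then 0.105 for Col8a1 (log2 ratio 1.42), 0.110 for Col14a1 (0.33) and 0.0982 for Col6a3 (0.44). By the same adjustment, Col25a1 (0.0655, log2 ratio 0.58) and Col6a5 (0.0885, log2 ratio -1.43) then stood ahead of these 3, and neither passed. Over all genes 29 passed after the subtraction, which is 0.165% of the 17562 with a GC value. The type IV genes kept higher means in all 5 cases, with a median of 0.40.

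**Figure D5:**
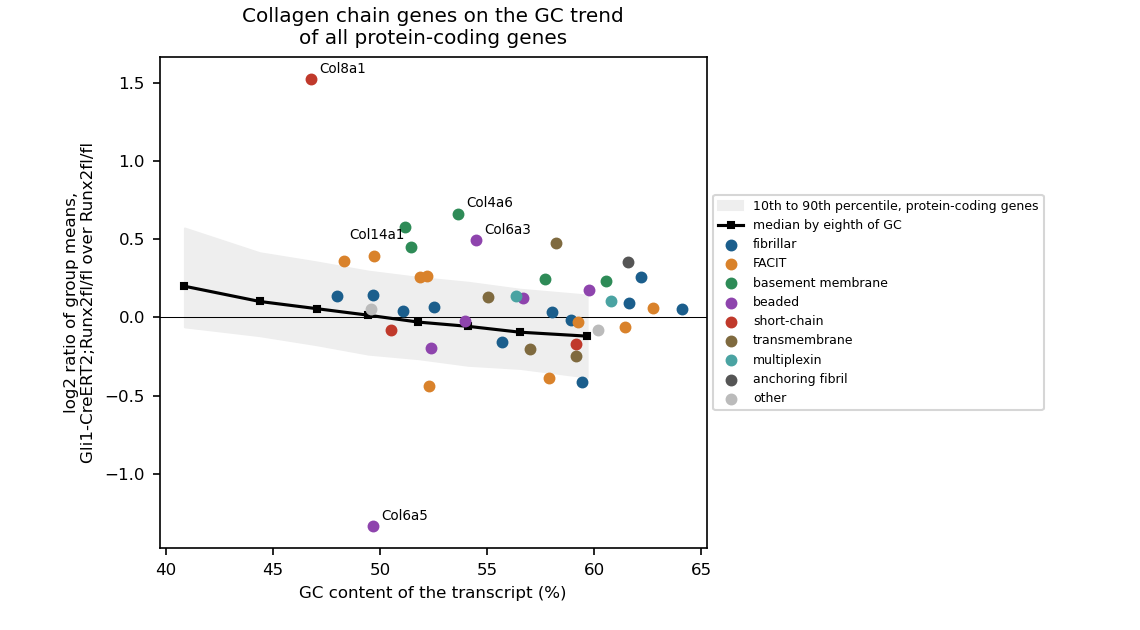
Log2 ratio of group means, mutants over controls (y axis), against GC content of the transcript (x axis, percent) for the 43 collagen chain genes by class; the line joins medians of protein-coding genes in eighths of GC content and the grey area spans their 10th to 90th percentiles. The line runs down from 0.20 to -0.12, and members lie outside the grey area on both sides, among them Col8a1, Col4a6, Col6a3, Col25a1, Col4a5, Col14a1 and Col12a1 above it and Col6a5, Col22a1 and Col27a1 below it.

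Genes that make, process, bind and break down collagen were set beside the chains. None of the 49 measured genes of these 4 lists rose or fell, where 0.788% of all genes did. Of 20 folding and modification genes 9 had higher means in mutants, with a median log2 ratio of -0.034. The lowest p belonged to Colgalt2, a galactosyltransferase of collagen hydroxylysine (2.16 in mutants and 1.41 in controls, adjusted p = 0.129), Fkbp10, a helix-folding isomerase (392.1 and 455.2, adjusted p = 0.199) and P4ha1, a prolyl hydroxylase subunit (82.6 and 65.4, adjusted p = 0.217 from the authors' deposited table). Serpinh1, the collagen chaperone, had 1723 in mutants and 1514 in controls.

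Of 14 processing and crosslinking genes 4 had higher means, and the median log2 ratio was -0.071. Adamts2, which trims the amino end of fibrillar procollagen, had 152.6 in mutants and 197.8 in controls (adjusted p = 0.156 from the authors' deposited table). Pcolce2, an enhancer of carboxyl-end trimming, had 6.09 and 9.0 (adjusted p = 0.182 from the authors' deposited table), and Tll1, a protease of that trimming, 12.6 and 10.2 (adjusted p = 0.263). Of 8 receptors 7 had higher means, with a median of 0.16, and the lowest p belonged to the integrin chains Itga1, which binds type IV collagen (30.4 in mutants and 20.4 in controls, adjusted p = 0.131 from the authors' deposited table), and Itga2 (25.7 and 22.4, adjusted p = 0.234). The receptor kinase gene Ddr2 had 273.7 in mutants and 220.9 in controls (adjusted p = 0.367 from the authors' deposited table). Of 7 breakdown genes 2 had higher means, and the collagenase gene Mmp13 stood at 15.1 in mutants and 67.1 in controls (log2 ratio -2.15, adjusted p = 0.0808 from the authors' deposited table). Fap had 17.8 and 12.2 (adjusted p = 0.259 from the authors' deposited table), and Mmp9 26.0 and 38.7 (adjusted p = 0.280).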

How the data were processed

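Total RNA libraries from the apical portions of mouse lower first molars were read as 2 x 50 nt. The submitters' processing notes list STAR 2.6.1d, Partek and mm10 with no role for any of them. How reads were assigned, normalised and filtered was not given in the sources used here. By its headers, the deposited table compares knockout with wild type (mutants and controls in the text) in a gene-specific test. Its group means are normalised signal, and the deposited total is 4 times their sum for all 17631 genes (relative tolerance 1e-06). The deposited ratio is mutant over control mean, and the deposited fold change, which carries a sign and is handled here as a score, restates it. The deposited p-value is the authors', and the deposited adjusted p equals its Benjamini-Hochberg adjustment over the 17631 genes. The lowest mutant mean is shared by 2 genes of 989 and 1757 exonic bases, so signal appears not to be scaled by length, and chains of one collagen type were compared after division by transcript length, while ranks, sums and shares use the signal as deposited.

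A test on counts could not be run, and the authors' adjusted p under 0.05 was used. Labels do not say whether each library is a separate animal, so p-values may in part measure technical spread. Members, lists and classes were chosen with earlier results of these data known. Every member is named. Of the other lists, those named are the members that passed and otherwise up to 3 by p-value; Serpinh1, Acan, Comp and Sox9 were named beyond this rule, after their values were seen, as were Cspg4, Rgs5, Scx and Tnmd. Marker lists in which no gene passed are given mostly as sums. Symbols were matched to GENCODE M21 (GRCm38) for 17562 genes, with the transcript of the longest coding sequence per gene. The trend on GC content and log2 length was fitted to protein-coding genes whose higher group mean reached 1 (mgcv 1.9.3, R 4.3.3). It was fitted separately to signed z, which was made from the p-values and gave the calls, and to the log2 ratios. The trend took 27.1% of the variance of signed z and 18.9% of that of the log2 ratios. It was tested on simulated data with a planted trend. Alternatives were stricter and looser thresholds, an unadjusted p, a filter on low means, a pseudocount of 1, centring and rescaling. Python 3.11.15 and pandas 2.3.3 made the tables.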

Additional observations from a re-analysis of the deposited data

How the results depend on the processing

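No paired analysis was possible because the deposited table holds group means and no values per library, so the replicate numbers could not enter a fit and no library could be left out. The medians and sums have no replicate spread, so a change of over 0.1 in log2 counts as a move. Of the 43 members, 3 rose. As higher, 0 passed at an adjusted p of 0.01, 5 at 0.10 and 10 at an unadjusted p of 0.05. At that unadjusted p 2 members also passed as lower. With the filter on low means 4 rose. Of all genes, 2.01% passed as higher at 0.10, and 9.89% as higher and 9.4% as lower at the unadjusted p. The share of all genes at 0.01 and with the filter was not computed, so those 2 counts have no background. With the GC and length trend subtracted 0 members passed; fewer of all genes passed too, and the cause for single genes was not tested. That subtraction gave a FACIT median log2 ratio of 0.19, where it was 0.059 before. Rescaling to the same sum, which adds the same amount to every gene by construction, took the median of all members to 0.23, and the class medians to 0.19 (fibrillar), 0.20 (FACIT), 0.59 (type IV), 0.19 (beaded), 0.058 (short-chain), 0.10 (transmembrane), 0.26 (multiplexin), 0.49 (anchoring fibril) and 0.12 (Col26a1 and Col28a1). The type IV median was 0.24 with a pseudocount of 1, 0.35 over members whose higher group mean reached 1, and 0.30 with types VII, XV and XVIII added. The beaded median was 0.17 with the filter. The log2 ratio of summed collagen signal was -0.032, and 0.11 without Col1a1 and Col1a2. Among single genes, none of them called, the sign turned with the trend subtracted for Col26a1 (0.036), Col16a1 (0.024), Col9a3 (0.077), Col1a1 (0.036) and Col24a1 (-0.019), and with rescaling for Col26a1 (0.058), Col16a1 (0.076), Col6a4 (0.12), Col9a3 (0.11), Col1a1 (0.12) and Col10a1 (0.058). Centring on the median of all genes moved no member by over 0.1, and the pseudocount moved 5. Means under 1, found for 6 members in both groups, limit the precision of their ratios, and depth per library is unknown.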
